A study of Xenopus tropicalis with 10 samples.

Results

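The regenerating tail of *Xenopus tropicalis* tadpoles at 24 h post amputation (hpa) was set against the intact whole tail, to ask which genes of the uncut tail, its tip included, the regrowing tissue held again, which it exceeded and which it still lacked. The comparison took 4 of the 10 libraries of the series: 24 hpa (2 libraries) and the whole tail (2 libraries). The labels describe the 24 hpa libraries as tail tissue of stage 40 tadpoles whose tails had been amputated, and the whole tail libraries as control tails of the same stage, which were removed in the first amputation. The 0 hpa group (2 libraries) was tissue next to that wound, taken in a second cut straight after the first, and is given beside the results as the starting point of regrowth. Libraries at 6 hpa (1), 15 hpa (1) and 72 hpa (2) entered the same fit. The spread came from the duplicated groups, since a group of 1 library has no replicate to differ from. The labels name no drug, mutation or transgene for any group, and RNA was taken from whole tail tissue. No uncut tail of the age reached a day after amputation formed a group, so age and regeneration cannot be told apart. Position along the tail also differed: the whole tail libraries held the tip, and the 24 hpa tissue came from amputated tails. Position and regeneration thus cannot be told apart either. The sources used here do not say how much of the tail was taken at 24 hpa. They also do not say whether the replicates are separate tadpoles or repeat libraries, so the p-values may rest on technical spread. Of 26550 genes in the table, 17896 had at least 10 normalised reads in at least 2 of the 10 libraries and were tested.

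A tadpole tail regrows from the stump after a wound epidermis has covered the cut. Cells beneath it form a regeneration bud, from which notochord, muscle, spinal cord and fin are rebuilt. The intact tail tip of a tadpole is itself still growing: its tailbud holds progenitors that express Brachyury and Cdx genes, and segmentation genes of the Notch pathway mark out new somites from them. Regrowth begins with inflammation, matrix remodelling and proliferation, while differentiated tissues are replaced over the following days.

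The 24 hpa libraries held 27948915 and 30181402 gene reads and the whole tail libraries 42702439 and 28831033. Values below are normalised reads, which are gene reads divided by the size factor of the library, so that 3 reads stand for 2.78 normalised reads in the deepest of these 4 libraries. Fold changes are 24 hpa minus whole tail on the scale log2(normalised reads + 1), which understates the change of low genes. Markers of muscle, notochord, neurons, epidermis, pigment cells, endothelium, blood and leukocytes were detected in all 4 libraries. The 52 sarcomere genes in the table took 1.29% and 0.514% of the gene reads at 24 hpa and 1.93% and 0.305% in the whole tail, so replicates differed in this share within both groups. Markers of gut, liver and kidney took 0.0212% and 0.0127% of the reads at 24 hpa and 0.0114% and 0.00855% in the whole tail. In bulk tissue, fewer cells of a type and less RNA per cell cannot be told apart.

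At 24 hpa 142 genes were called higher (0.793% of those tested) and 56 lower (0.313%) than in the whole tail, with limma on log2(value + 1) and Benjamini-Hochberg adjusted p under 0.05. The higher genes held matrix proteases, fibronectin, a keratin, cytokine receptors and leukocyte genes. The lower genes held those of motor neurons and synapses, caveolins, a pigment gene and a segmentation ligand. The 95% interval of the difference lay within 2-fold of the whole tail for 6814 genes (38.1%), and the other 10884 genes could be placed neither way. In simulated data only 35.8% of unchanged genes lay within 2-fold. The share of 38.1% is thus limited by the width of the intervals and is not the share of unchanged genes. Genes whose 24 hpa libraries both lay above the whole tail libraries numbered 4629 (25.9%), and 4552 (25.4%) lay below. All 142 genes called higher and all 56 called lower were among these, so this separation adds no support to a call. DESeq2 on the recovered reads called 705 higher and 612 lower, among them all 198 genes in the same direction, and edgeR called 127 and 60, with 181 shared. The calls rest on the spread of all 4 duplicated groups: fitted on the 4 libraries alone, limma called 0 genes higher and 0 lower (3139 had an unadjusted p under 0.05). Without 24 hpa replicate 1 it called 1 higher and 1 lower, 1 and 2 without the other 24 hpa library, 3 and 1 without whole tail replicate 1, and 40 and 8 without whole tail replicate 2. SLC18B1 and LOC100498264 (nmur1) were the 2 genes called without each of the 4 libraries in turn, while all 198 kept their sign. The separation of the groups fixed this sign in advance, so it adds no support. The authors' deposited table holds a mark of differential expression, whose test is not stated. It stood on 100% of the 198 genes and on 28.4% of the tested genes. The mark is part of the same deposited data, so it is no independent support.

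**Figure D1:**
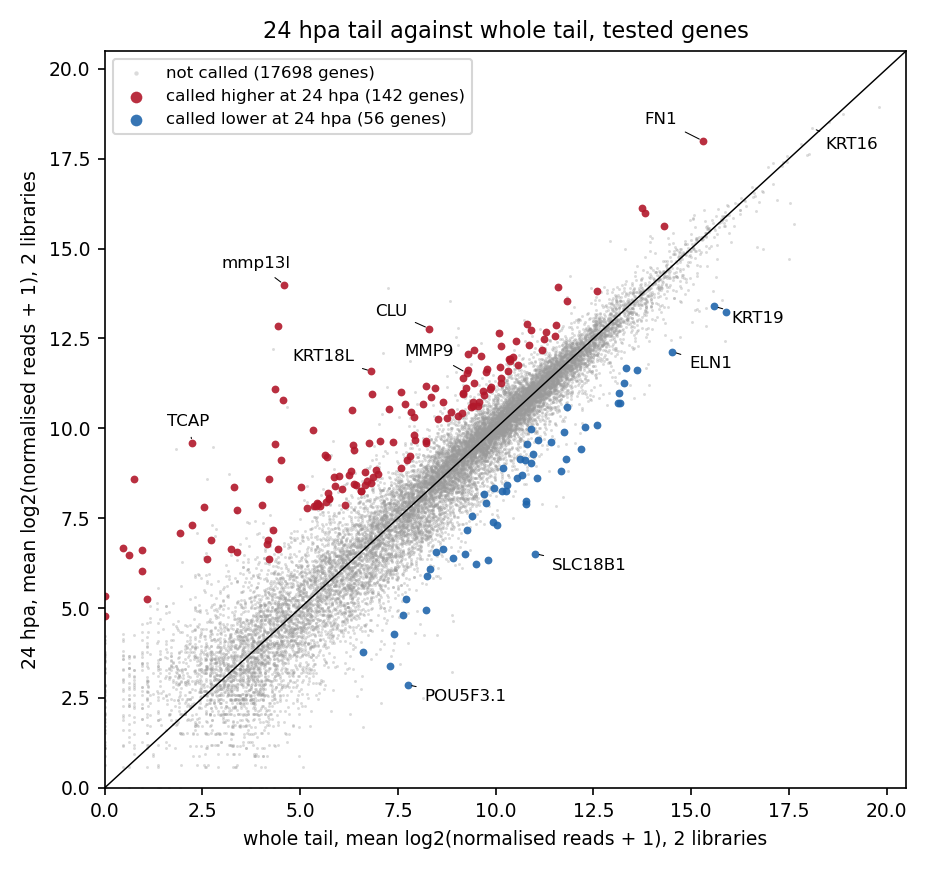
Mean log2(normalised reads + 1) of the 17896 tested genes at 24 hpa (vertical axis, 2 libraries) against the whole tail (horizontal axis, 2 libraries), with the line of equal values. The 142 genes called higher lie above the line over the whole range of levels, from TCAP to FN1, and the 56 called lower lie below it, while KRT16 sits on the line.

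Lists of genes for tissues and pathways showed where the 24 hpa tail stood relative to the whole tail. The 37 lists held 1308 tested genes, and a gene named below from a list is an example chosen with its values known unless it was called, belongs to the panel of regeneration genes or is among the 2 with most reads in its list. The highest medians belonged to leukocytes (1.39), ribosome biogenesis (0.84) and inflammatory signalling (0.75), and the lowest to neural progenitors (-1.79), segmenting paraxial mesoderm (-1.28) and differentiated neurons (-1.13). Over all tested genes the median was -0.0038, with 8896 genes above 0 and 9000 below.

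**Figure D2:**
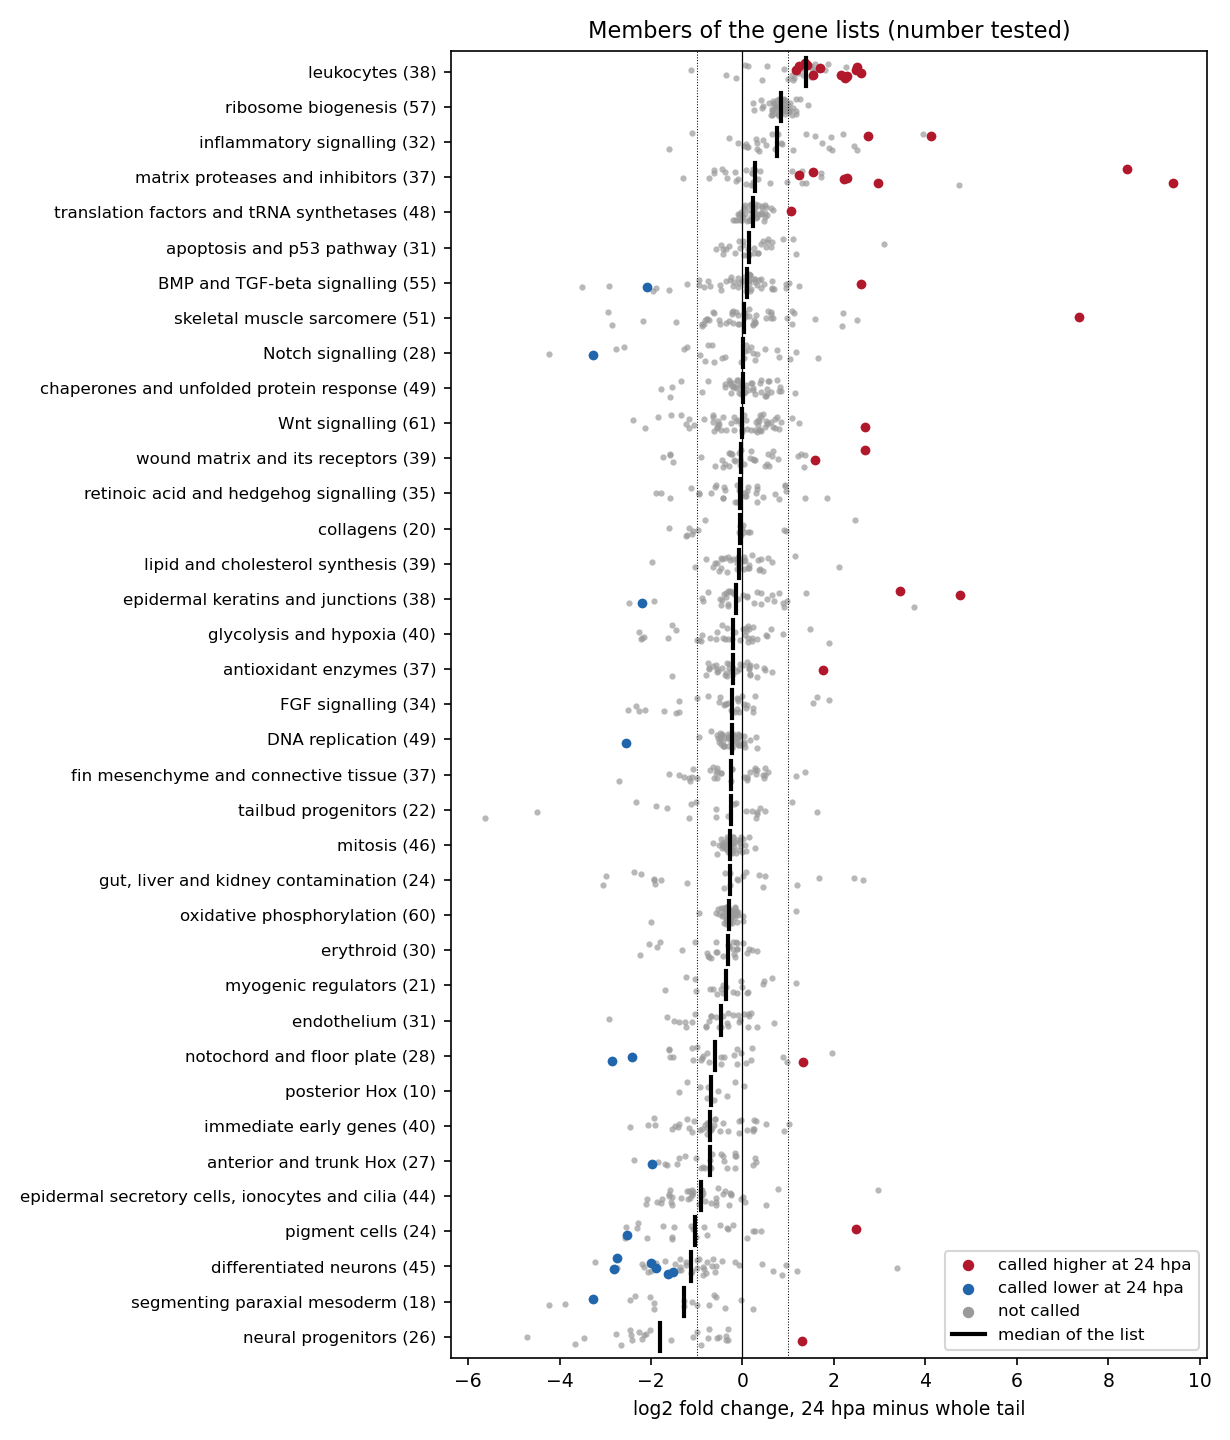
Log2 fold change (24 hpa minus whole tail, horizontal axis) of each tested member of the 37 lists, with red points for genes called higher, blue points for genes called lower, grey points for genes not called, a black bar for the median and dotted lines at a 2-fold difference. Leukocyte genes lie furthest to the right as a list and neural progenitor, segmentation and neuron genes furthest to the left.

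Fibronectin and several enzymes that cut extracellular matrix exceeded the level of the whole tail. FN1, which encodes fibronectin, the matrix protein laid down in healing wounds, stood at 304219 and 222884 normalised reads at 24 hpa, against 46594 and 35032 in the whole tail. Both 24 hpa libraries lay far above both whole tail libraries (log2 fold change 2.69, SE 0.29, limma adjusted p = 0.019), and above 19008 and 13268 at 0 hpa. LTBP3, which binds latent TGF-beta in the matrix, stood at 3572 and 4204 at 24 hpa, against 1233 and 1361 in the whole tail (log2 fold change 1.58, SE 0.23, limma adjusted p = 0.033). These were the 2 of 39 wound matrix genes that were called, and none was lower (against 0.793% higher and 0.313% lower of all tested genes). VCAN, the proteoglycan versican, had a log2 fold change of 1.23 and did not pass (adjusted p = 0.055). The median of the list was -0.02, with a sign that changed under 6 of 21 alternatives. Within 2-fold lay 15 of its 39 members (38.5%, against 38.1% of all tested genes). SPARC, a collagen-binding glycoprotein, was among them (-0.24, interval -0.80 to 0.31). LOX, which crosslinks collagen and elastin, had a log2 fold change of -1.74 (adjusted p = 0.097).

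Of 37 matrix proteases and their inhibitors, 7 were called higher and 0 lower (against 0.793% and 0.313% of all tested genes). The list's median was 0.28 (0.204 to 0.54 over 21 alternatives), with 27 members above the whole tail and 14 with a log2 fold change above 1. LOC100490019 (mmp13l by RefSeq), a collagenase-type matrix metalloproteinase, stood at 28749.9 and 9287 normalised reads at 24 hpa, against 7.42 and 67.8 in the whole tail (log2 fold change 9.41, SE 1.33, limma adjusted p = 0.03). Its log2 fold change was 8.59 without 24 hpa replicate 1, 10.22 without 24 hpa replicate 2, 7.89 without whole tail replicate 1 and 10.92 without whole tail replicate 2. LOC100494738 (mmp9.2), a gelatinase, stood at 10319 and 5240.1 at 24 hpa, against 12.06 and 35.3 in the whole tail (log2 fold change 8.40, SE 0.78, limma adjusted p = 0.015). It was 7.66 without whole tail replicate 1 and 9.14 without replicate 2. For both genes the whole tail held next to nothing and the lower 24 hpa library still lay far above it.

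MMP9, another gelatinase of the list, stood at 2327 and 3796 normalised reads at 24 hpa, against 631 and 593 in the whole tail (log2 fold change 2.28, SE 0.28, limma adjusted p = 0.023), beside 1295 and 1623 at 0 hpa. MMP7, matrilysin, stood at 2371 and 3046 at 24 hpa, against 645 and 506 in the whole tail (log2 fold change 2.23, SE 0.26, limma adjusted p = 0.021), beside 1342 and 1275 at 0 hpa. For both genes the values at the fresh wound already lay above the whole tail, without a call. For 0 hpa minus whole tail the log2 fold change was 1.24 for MMP9 and 1.19 for MMP7 (limma adjusted p = 0.31 for each). MMP11, a stromelysin, stood at 2431 and 2208 at 24 hpa, against 448 and 197 in the whole tail (log2 fold change 2.96, SE 0.41, limma adjusted p = 0.027), with 3.55 without whole tail replicate 1 and 2.37 without replicate 2. MMP14, the membrane-anchored metalloproteinase that activates others, stood at 14540.4 and 14486 at 24 hpa, against 6242 and 6059 in the whole tail (log2 fold change 1.24, SE 0.15, limma adjusted p = 0.022), while its values of 5625 and 6037 at 0 hpa lay just below the whole tail. ADAM9, a protease of the cell surface, stood at 3729 and 4332 at 24 hpa, against 1285 and 1499 in the whole tail (log2 fold change 1.53, SE 0.18, limma adjusted p = 0.022). In these 5 genes, as in all genes called higher, both 24 hpa libraries lay above both whole tail libraries. MMP1, interstitial collagenase, stood at 10369.6 and 10813 at 24 hpa, against 2132 and 7758 in the whole tail and was not called (adjusted p = 0.33). MMP13 did not pass either (1.73, adjusted p = 0.22), nor did the inhibitor TIMP3 (0.28, adjusted p = 0.79).

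Among called genes outside the lists, a pair of MMP19-like copies moved in opposite directions. MMP19-LIKE.1 stood at 438 and 364 normalised reads at 24 hpa, against 55.7 and 59.7 in the whole tail (log2 fold change 2.77, SE 0.38, limma adjusted p = 0.027). MMP19-LIKE.2 stood at 208 and 306 at 24 hpa, against 1473 and 2047 in the whole tail (log2 fold change -2.78, SE 0.37, limma adjusted p = 0.025). Reads shared between such copies may be split by the counting, so the levels of the single copies are uncertain. ADAMTS15, which cleaves proteoglycans, stood at 313 and 349 at 24 hpa, against 31.5 and 31.2 in the whole tail (log2 fold change 3.36, SE 0.34, limma adjusted p = 0.015). The ADAMTS15 replicates were close to each other in both groups. FREM2 and FREM1, which anchor the epidermal basement membrane in the Fraser complex, were called higher as well. These 2 genes and CTSK-LIKE were chosen after their values were seen. FREM2 stood at 70115 and 73966 at 24 hpa, against 17095 and 11119 in the whole tail (log2 fold change 2.38, SE 0.26, limma adjusted p = 0.019). FREM1 had a log2 fold change of 1.84 (adjusted p = 0.03). CTSK-LIKE, a cathepsin K type protease, had one of 2.35 (adjusted p = 0.027).

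Among genes listed for the epidermis, 1 keratin exceeded the whole tail while another was lower. Which cells held the reads of these 2 keratins was not tested. KRT18L, named as a relative of keratin 18, stood at 3316 and 2843 normalised reads at 24 hpa, against 72.3 and 174 in the whole tail (log2 fold change 4.76, SE 0.38, limma adjusted p = 0.013), with 4.14 without whole tail replicate 1 and 5.39 without replicate 2. Its values of 103 and 104 at 0 hpa were low, so both 24 hpa libraries stood above the whole tail and the fresh wound alike. KRT19, an epithelial keratin, was lower, at 11228 and 10276 at 24 hpa, against 41625 and 58219.6 in the whole tail (log2 fold change -2.20, SE 0.31, limma adjusted p = 0.03), and its values of 8563 and 14079 at 0 hpa were of the size seen at 24 hpa. Of 38 epidermal keratins and junction genes 2 were called higher and 1 lower (against 0.793% and 0.313% of all tested genes). Their median was -0.14 (a sign that changed under 2 of 21 alternatives). Within 2-fold lay 10 (26.3%, against 38.1% of all tested genes).

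KRT16, in mammals a keratin of stressed and healing epidermis, had values of 277558 and 399707 normalised reads at 24 hpa, against 304372 and 258876 in the whole tail, with 13942 and 26473 at 0 hpa. The difference from the whole tail was 0.25 with a 95% interval of -0.72 to 1.21, just too wide for the bound of 1, while against 0 hpa the gene was 4.12 higher (limma adjusted p = 0.015). KRT18 and KRT8, the keratin pair of simple epithelia and notochord, had log2 fold changes of 0.98 and 0.88 against the whole tail and did not pass (adjusted p = 0.079 and 0.12). KRT5.7, the keratin with most reads, stood at 512579 and 497168 at 24 hpa, against 951507 and 891645 in the whole tail (adjusted p = 0.32). The epidermal regulator TP63 (0.40) and the adhesion molecule CDH1 (0.55) were not called, and EPCAM lay within 2-fold (-0.09, interval -0.74 to 0.56). Ionocytes, mucus cells and multiciliated cells of the skin form another list, of which 0 of 44 members were called and 39 had values below the whole tail (median -0.90, and -1.24 to -0.516 over 21 alternatives). TEKT2, a protein of ciliary microtubules, stood at 703 and 246 at 24 hpa, against 1488 and 1077 in the whole tail (adjusted p = 0.16). ITLN1, an intelectin of mucus-secreting cells, stood at 39345 and 26806 at 24 hpa, against 115788 and 119915 in the whole tail (adjusted p = 0.5).

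**Figure D3:**
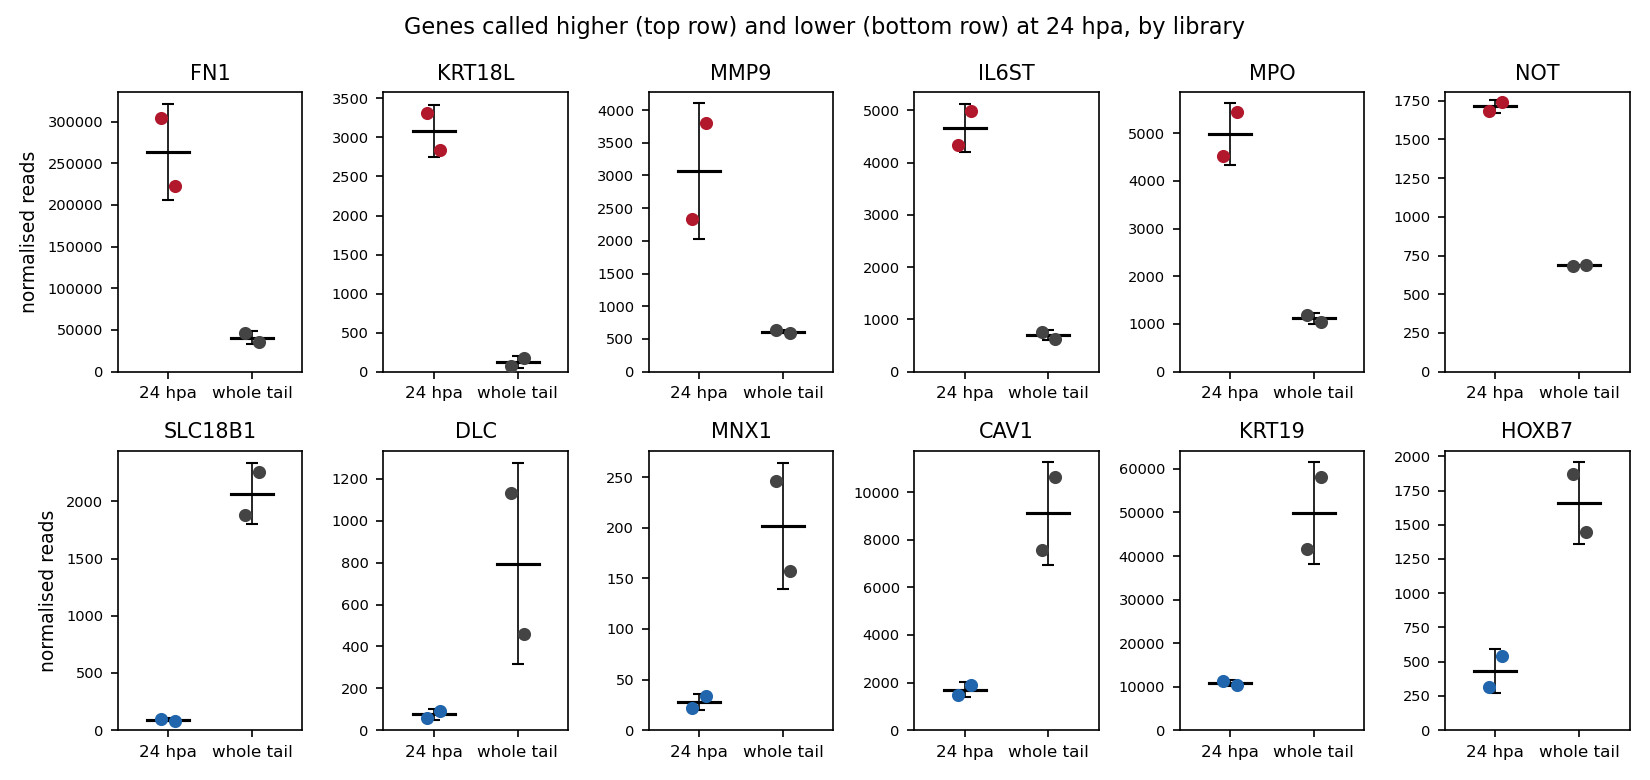
Normalised reads of 12 called genes in the 24 hpa libraries (coloured points, left in each panel) and the whole tail libraries (dark points, right), with the mean and SD of the 2 libraries of a group. In the top row both 24 hpa libraries of FN1, KRT18L, MMP9, IL6ST, MPO and NOT lie above both whole tail libraries, and in the bottom row those of SLC18B1, DLC, MNX1, CAV1, KRT19 and HOXB7 lie below. All called genes had such non-overlapping groups.

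A pair of receptor chains of the interleukin 6 family was called higher. IL6ST, which encodes the shared receptor chain gp130, stood at 4342 and 4989 normalised reads at 24 hpa, against 764 and 629.5 in the whole tail (log2 fold change 2.74, SE 0.23, limma adjusted p = 0.013). OSMR, the oncostatin M receptor that pairs with gp130, stood at 2055 and 1927 at 24 hpa, against 58.4 and 218 in the whole tail (log2 fold change 4.12, SE 0.54, limma adjusted p = 0.025). Its log2 fold change was 3.18 without whole tail replicate 1 and 5.07 without replicate 2. At 0 hpa IL6ST stood at 1381 and 916 and OSMR at 435 and 711. Both receptors are the called members of 32 inflammatory genes (against 0.793% called higher of all tested genes). Of the 32, 28 had values above the whole tail (median 0.75), and 4 lay within 2-fold (against 38.1% of all tested genes). Downstream of this receptor, the copy STAT3.1 of the transcription factor STAT3 (chosen after its value was seen) stood at 1601 and 2196 at 24 hpa, against 296 and 361 in the whole tail (log2 fold change 2.52, SE 0.23, limma adjusted p = 0.015). SOCS3-LIKE.1, a copy of a feedback inhibitor, stood at 3419 and 5318 at 24 hpa, against 459 and 862 in the whole tail (log2 fold change 2.76, SE 0.38, limma adjusted p = 0.027). In both copies the groups were clear of each other. SOCS3 itself had a log2 fold change of 1.96 and did not pass (adjusted p = 0.12). IL1B, a cytokine of early injury, stood at 239 and 561 at 24 hpa, against 71.4 and 128 in the whole tail (adjusted p = 0.19), and at 1053 and 1107 at 0 hpa. PTGS2, the inducible cyclooxygenase, was not called either (-1.10, adjusted p = 0.19).

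Leukocyte genes were the list with the most calls. Of 38 tested members, 12 were called higher and 0 lower (against 0.793% of all tested genes), 35 had values above the whole tail, and the median was 1.39. The 3 with lower values were CSF3 (-0.14), CXCR4 (-0.35) and MRC1 (-1.13). MPO, the peroxidase of myeloid granules, stood at 4515 and 5439 normalised reads at 24 hpa, against 1197 and 1041 in the whole tail (log2 fold change 2.15, SE 0.28, limma adjusted p = 0.025). SPI1, the transcription factor PU.1 of myeloid cells, stood at 228 and 262 at 24 hpa, against 60.3 and 40.7 in the whole tail (log2 fold change 2.28, SE 0.33, limma adjusted p = 0.032). ITGB2, the beta 2 integrin chain of leukocytes, stood at 412 and 497 at 24 hpa, against 100.2 and 61.1 in the whole tail (log2 fold change 2.52, SE 0.32, limma adjusted p = 0.024). ITGAX, an alpha chain that pairs with it, stood at 276 and 357 at 24 hpa, against 47.3 and 90.9 in the whole tail (adjusted p = 0.042). In all of these genes the groups were separated by a wide gap.

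CSF1R, the macrophage colony-stimulating factor receptor, stood at 2074 and 2317 normalised reads at 24 hpa, against 939.6 and 913 in the whole tail (log2 fold change 1.24, SE 0.16, limma adjusted p = 0.025), while its values of 838 and 909 at 0 hpa did not exceed those of the whole tail. LCP1, an actin-bundling protein of leukocytes, stood at 1921 and 2331 at 24 hpa, against 809 and 828 in the whole tail (log2 fold change 1.37, SE 0.17, limma adjusted p = 0.023), with 1309.7 and 1409 at 0 hpa. The other called members were NCF1, a subunit of the phagocyte oxidase (2.48), LOC100493958 (tyrobp, an adaptor of myeloid receptors, 2.60), LCP2 (1.70), LOC100496720 (cd68, a lysosomal protein of macrophages, 1.54), RAC2 (1.42) and ARHGDIB (1.16), with adjusted p between 0.027 and 0.044 (limma). PTPRC, the pan-leukocyte antigen CD45, stood at 569 and 869 at 24 hpa, against 203 and 263 in the whole tail and missed the threshold (adjusted p = 0.052). The summed share of gene reads of the 38 genes overlapped between the groups, at 0.491% and 0.61% at 24 hpa and 0.409% and 0.53% in the whole tail.

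Called higher outside the lists were also a complement component, clusterin and an antiviral gene. C3, the central complement component, stood at 60467 and 70851 normalised reads at 24 hpa, against 15206 and 13883 in the whole tail (log2 fold change 2.17, SE 0.20, limma adjusted p = 0.015), beside 7596 and 7108 at 0 hpa. CLU, clusterin, a secreted chaperone, stood at 6787 and 7184 at 24 hpa, against 245 and 403 in the whole tail (log2 fold change 4.47, SE 0.42, limma adjusted p = 0.015). IFITM3, an antiviral membrane protein, stood at 738 and 1329 at 24 hpa, against 26.9 and 57.0 in the whole tail (log2 fold change 4.62, SE 0.54, limma adjusted p = 0.021). No whole tail library of these 3 genes came near a 24 hpa library. IL5RA, a cytokine receptor chain, stood at 373 and 402 at 24 hpa, against 6.49 and 44.8 in the whole tail (log2 fold change 4.39, SE 0.74, limma adjusted p = 0.044), with 3.09 without whole tail replicate 1 and 5.696 without replicate 2. LOC100496213 (epx), a peroxidase of granulocytes, stood at 5304 and 7714 at 24 hpa, against 1212 and 970.1 in the whole tail (log2 fold change 2.56, SE 0.35, limma adjusted p = 0.027). C3 and LOC100496213 were chosen after their values were seen.

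Signals and regulators of growth gave few calls. INHBA, which encodes the activin A subunit of the TGF-beta family, stood at 1011 and 1908 normalised reads at 24 hpa, against 273 and 191 in the whole tail (log2 fold change 2.60, SE 0.40, limma adjusted p = 0.037), with 174 and 97.1 at 0 hpa. BMPER, a BMP-binding modulator, was lower, at 111 and 187 at 24 hpa, against 778 and 484 in the whole tail (log2 fold change -2.08, SE 0.36, limma adjusted p = 0.047). They were the called members of 55 BMP and TGF-beta genes (median 0.09, below 0 under 1 of 21 alternatives), against 0.793% higher and 0.313% lower of all tested genes. Within 2-fold lay 21 of the 55 (38.2%, against 38.1% of all tested genes). These included BMP4 (-0.48, interval -0.86 to -0.10), TGFB1 (0.27, -0.40 to 0.94) and MSX2 (0.27, -0.36 to 0.90). ROR1, a receptor for Wnt5-type ligands, was the called member of 61 Wnt genes (against 0.793% called higher of all tested genes). It stood at 464 and 357 at 24 hpa, against 61.2 and 63.8 in the whole tail (log2 fold change 2.68, SE 0.32, limma adjusted p = 0.022). The ligands WNT5A (0.85, adjusted p = 0.18) and WNT3A (-0.13, adjusted p = 0.91) and the nuclear effector LEF1 (0.70, adjusted p = 0.2) were not called.

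Of 34 FGF pathway genes 0 were called and 11 lay within 2-fold (32.35%, against 38.1% of all tested genes), with a median of -0.23. FGF20, a secreted growth factor of regenerating appendages in zebrafish, stood at 389.7 and 597 normalised reads at 24 hpa, against 106 and 157 in the whole tail, and its log2 fold change of 1.89 did not pass (adjusted p = 0.11). It stood at 18.7 and 44.0 at 0 hpa, and against these it was called (4.02, limma adjusted p = 0.021). FGF8 stood at 777 and 534 at 24 hpa, against 349 and 125 in the whole tail (adjusted p = 0.16), with 69.3 and 86.1 at 0 hpa (3.04 against 0 hpa, limma adjusted p = 0.041). Both 24 hpa libraries of FGF20 and FGF8 thus lay above both whole tail libraries without passing the test. Of all tested genes 25.9% lay above in this way. FGF10 (0.23) and FGF9 (-0.09) overlapped with the whole tail. MDK, the heparin-binding growth factor midkine, was called higher at 46617 and 53898 at 24 hpa, against 18326 and 22624 in the whole tail (log2 fold change 1.30, SE 0.21, limma adjusted p = 0.041).

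The largest rises by the rule for named genes also included genes of other roles. TCAP, the titin cap of the muscle Z-disc, stood at 2079 and 288 normalised reads at 24 hpa, against 1.86 and 6.78 in the whole tail (log2 fold change 7.36, SE 1.27, limma adjusted p = 0.048), with 5.94 without 24 hpa replicate 1, 8.79 without 24 hpa replicate 2, 6.64 without whole tail replicate 1 and 8.09 without whole tail replicate 2. It was the called member of 51 sarcomere genes (against 0.793% called higher of all tested genes). The share of reads of the sarcomere list was 1.29% and 0.514% in the same 24 hpa libraries and 1.93% and 0.305% in the whole tail. The part of muscle content in this result was not tested. TCAP was called under 6 of the 13 alternatives that did not leave out a single library. STC1-LIKE, a stanniocalcin-type hormone, stood at 1434 and 393 at 24 hpa, against 16.7 and 23.1 in the whole tail (log2 fold change 5.19, SE 0.66, limma adjusted p = 0.024), with 4.25 without 24 hpa replicate 1 and 6.12 without 24 hpa replicate 2. ALDH1A3-LIKE, of a family of enzymes that make retinoic acid, stood at 219 and 492 at 24 hpa, against 6.49 and 12.21 in the whole tail (log2 fold change 5.05, SE 0.66, limma adjusted p = 0.025). MYBL1, a transcription factor of the Myb family, stood at 480.0 and 771 at 24 hpa, against 45.4 and 51.6 in the whole tail (log2 fold change 3.62, SE 0.41, limma adjusted p = 0.02). In each of these genes the whole tail held few reads. FAM115A-LIKE had a log2 fold change of 2.98 (adjusted p = 0.021). PTHLH, parathyroid hormone-like hormone, was left out of that rule by its low level: it had 150 reads at 24 hpa and 3 in the whole tail, a ratio of 58.0 with a counting interval of 19.5 to 284. LOC100498264 (nmur1, a neuromedin U receptor) stood at 1367 and 3423 at 24 hpa, against 23.2 and 16.3 in the whole tail (log2 fold change 6.73, SE 0.44, limma adjusted p = 0.0054), with 7.39 without 24 hpa replicate 1 and 6.06 without 24 hpa replicate 2. PTHLH and LOC100498264 were chosen after their values were seen.

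Genes that build ribosomes lay above the whole tail as a list, without a call. All 57 tested members had values above the whole tail (median 0.84), 0 were called, and 3 lay within 2-fold (5.26%, against 38.1% of all tested genes). MYBBP1A, a nucleolar protein, stood at 4666 and 3817 normalised reads at 24 hpa, against 1899 and 1266 in the whole tail (adjusted p = 0.068). POLR1A, the largest subunit of RNA polymerase I, stood at 3393 and 3033 at 24 hpa, against 1629.7 and 1227 in the whole tail (adjusted p = 0.066). FBL, the methyltransferase fibrillarin, stood at 12848 and 9677 at 24 hpa, against 7777 and 4551 in the whole tail (adjusted p = 0.2). NPM1, the nucleolar protein nucleophosmin, stood at 23997 and 19678 at 24 hpa, against 16527 and 11614 in the whole tail (adjusted p = 0.21). The 24 hpa libraries lay above both whole tail libraries for each of these 4, as for 25.9% of all tested genes. The list median was 1.02 and 0.683 in the 24 hpa libraries relative to the mean of the whole tail, and the whole tail libraries themselves lay at 0.157 and -0.157. Outside the list, and chosen after their values were seen, 3 genes of nucleolar function were called: PDCD11, for processing of ribosomal RNA (1.51), MDN1, an ATPase of 60S subunit assembly (1.00), and NAF1, for assembly of H/ACA particles (limma adjusted p = 0.041). VARS, valyl-tRNA synthetase, was the called member of 48 translation factors and tRNA synthetases (1.07, limma adjusted p = 0.049), against 0.793% called higher of all tested genes. Of the 48, 36 lay within 2-fold (75%, against 38.1% of all tested genes), with a median of 0.23.

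Among what the 24 hpa tail lacked, neuronal genes had the most calls. Of 45 differentiated neuron genes, 6 were called lower and 0 higher (against 0.313% of all tested genes), 39 had values below the whole tail, and the median was -1.13. MNX1, the homeodomain factor of motor neurons, stood at 21.9 and 33.6 normalised reads at 24 hpa, against 246 and 157 in the whole tail (log2 fold change -2.81, SE 0.42, limma adjusted p = 0.035). SLC18A3, the vesicular transporter of acetylcholine, stood at 103 and 96.1 at 24 hpa, against 447 and 361 in the whole tail (log2 fold change -2.01, SE 0.33, limma adjusted p = 0.041). Its values were 680.1 and 652 at 0 hpa, above those of the whole tail but not called (0.73 for 0 hpa minus whole tail, limma adjusted p = 0.66). ELAVL4, an RNA-binding protein of neurons, stood at 286 and 325 at 24 hpa, against 1330.1 and 978 in the whole tail (log2 fold change -1.90, SE 0.27, limma adjusted p = 0.031) and at 1641 and 1253 at 0 hpa. PRPH, the intermediate filament peripherin, stood at 129.9 and 189.7 at 24 hpa, against 1621 and 681 in the whole tail (log2 fold change -2.73, SE 0.44, limma adjusted p = 0.041), with -2.11 without whole tail replicate 1 and -3.36 without replicate 2. SNCB, a synuclein (-1.64), and RAB3A, a GTPase of synaptic vesicles (-1.53), completed the called members, with limma adjusted p = 0.032 and 0.041.

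Several genes called lower outside the list are known from neurons and neuroendocrine cells, and were chosen after their values were seen. SYP, synaptophysin of synaptic vesicles, stood at 635 and 502 normalised reads at 24 hpa, against 1495 and 1628 in the whole tail (log2 fold change -1.47, SE 0.19, limma adjusted p = 0.025) and at 2037 and 1904 at 0 hpa. RET, a receptor of neurotrophic factors, stood at 58.8 and 57.6 at 24 hpa, against 316 and 288 in the whole tail (log2 fold change -2.35, SE 0.30, limma adjusted p = 0.025) and at 457 and 341 at 0 hpa. For both genes the tissue beside the fresh cut held at least as much as the whole tail, and the 24 hpa tail held less. NEUROD1, a transcription factor of neuronal differentiation (-2.83), NCAM1, the neural cell adhesion molecule (-2.24), SNAP91 (-1.84) and CHGA, chromogranin A (-1.92), had limma adjusted p between 0.024 and 0.049. The 2 members with most reads were not called. TUBB2B, a tubulin of growing neurites, stood at 1091 and 1018 at 24 hpa, against 4013 and 1513 in the whole tail (adjusted p = 0.23). DPYSL3, a cytoskeletal protein of neurons, lay within 2-fold (-0.07, interval -0.66 to 0.52). Among members with positive values, RUNX3 (3.39) and LHX1 (1.19) did not pass (adjusted p = 0.074 and 0.19).

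Neural progenitor genes had a median of -1.79, with 25 of 26 members below the whole tail and 0 within 2-fold (against 38.1% of all tested genes). The median ranged from -1.84 to -1.07 over 21 alternatives and was -1.15 without whole tail replicate 1, and its order relative to segmenting paraxial mesoderm was not stable. The median interval of the list was 1.26 to either side, wider than the bound of 1. Many of its members thus could not lie within 2-fold whatever their difference. None of the 26 was called lower, and MDK, given above, was the called higher member. DBX1, a homeodomain factor of the spinal cord, stood at 10.9 and 1.201 normalised reads at 24 hpa, against 228 and 77.3 in the whole tail (adjusted p = 0.063). PAX6, another such factor, stood at 58.8 and 34.8 at 24 hpa, against 242 and 201 in the whole tail (adjusted p = 0.094). FABP7, a lipid-binding protein of radial glia, stood at 368 and 98.5 at 24 hpa, against 991 and 1122 in the whole tail (adjusted p = 0.099). Both 24 hpa libraries lay below both whole tail libraries in each of these 3 genes, as in 25.4% of all tested genes. The test was not passed. NOTCH1, a receptor that holds progenitors back from differentiation, stood at 2420.4 and 2732 at 24 hpa, against 4828 and 3864 in the whole tail (adjusted p = 0.15). The pan-neural factor SOX2 stood at 1020.1 and 732 at 24 hpa, against 1530.4 and 763 in the whole tail (adjusted p = 0.68), with overlapping groups, and SOX3 had a log2 fold change of -0.90 (adjusted p = 0.38).

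Segmentation genes of the growing tip lay below the whole tail as a list, with a single call. Of 18 genes of the segmenting paraxial mesoderm, 17 had values below the whole tail and the median was -1.28. It was -0.71 without whole tail replicate 1 and -2.09 without whole tail replicate 2, and those libraries lay at 0.648 and -0.648 around their mean. Of the 18 genes 1 was called lower and 0 higher, and 1 lay within 2-fold (against 0.313%, 0.793% and 38.1% of all tested genes). The median interval of the list was 1.35 to either side, so many members could not lie within 2-fold whatever their difference. The called gene was DLC, a Notch ligand expressed in stripes in the presomitic mesoderm, at 57.4 and 93.7 normalised reads at 24 hpa, against 1134 and 457 in the whole tail (log2 fold change -3.28, SE 0.53, limma adjusted p = 0.041). It was -2.62 without whole tail replicate 1 and -3.93 without replicate 2. It stood at 345 and 335 at 0 hpa. HES7.2, a cycling repressor of the segmentation clock, stood at 5.47 and 55.2 at 24 hpa, against 600.1 and 214 in the whole tail (adjusted p = 0.099). MESPA, which sets the next segment border, stood at 2.73 and 8.41 at 24 hpa, against 133 and 55.6 in the whole tail (adjusted p = 0.17). Both lay below both whole tail libraries, as did 25.4% of all tested genes, and neither passed the test. HES4 was the member within 2-fold (-0.03, interval -0.64 to 0.59).

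Tailbud progenitor genes were split. Of 22 members 0 were called, 9 had values above the whole tail and 13 below, and the median was -0.25. The list median was -1.29 for 0 hpa minus whole tail and 0.80 for 24 hpa minus 0 hpa. MSGN1, which drives presomitic mesoderm, stood at 0 and 31.2 normalised reads at 24 hpa, against 520.3 and 149 in the whole tail (adjusted p = 0.19). NKX1-2, a factor of axial progenitors, stood at 0 and 1.201 at 24 hpa, against 27.8 and 38.0 in the whole tail (adjusted p = 0.11). Both genes had 0 reads in 24 hpa replicate 1. At 0 hpa MSGN1 stood at 0 and 16.5 and NKX1-2 at 0 and 0, so both were already low beside the fresh cut. T, the Xenopus Brachyury gene, stood at 670.1 and 666 at 24 hpa, against 1563 and 1463 in the whole tail (log2 fold change -1.18, adjusted p = 0.052), and at 725 and 537 at 0 hpa, so its 24 hpa values were within the range of the fresh wound. By contrast VENTX2.1, a homeobox factor of ventral and tailbud cells, stood at 172 and 204 at 24 hpa, against 291 and 107 in the whole tail and at 7.49 and 14.7 at 0 hpa. Its difference from the whole tail was 0.08 (interval -1.32 to 1.49), and from 0 hpa 4.03 (limma adjusted p = 0.037). SALL1, a zinc finger factor, stood at 4444 and 5559 at 24 hpa, against 3541 and 3545 in the whole tail and at 1259 and 1493 at 0 hpa (interval against the whole tail -0.06 to 1.03). SALL4, a related factor of progenitor cells, lay within 2-fold of the whole tail (0.38, interval -0.23 to 0.98). POU5F3.1, a relative of mammalian Oct4 and outside the list, was called lower at 2.73 and 13.2 at 24 hpa, against 179 and 256 in the whole tail (log2 fold change -4.89, SE 0.84, limma adjusted p = 0.047). It was -3.92 without 24 hpa replicate 1 and -5.85 without 24 hpa replicate 2. Its values of 7.49 and 21.98 at 0 hpa were about as low.

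Hox genes, which give cells their position along the body, were mostly below the whole tail. Of 27 anterior and trunk Hox genes 24 had lower values (median -0.71), and 1 was called lower (against 0.313% of all tested genes). This was HOXB7, at 319 and 543 normalised reads at 24 hpa, against 1869.9 and 1445 in the whole tail (log2 fold change -1.98, SE 0.31, limma adjusted p = 0.041) and 279 and 328 at 0 hpa. The median difference of the 27 genes from 0 hpa was 0.37. HOXA9 lay within 2-fold of the whole tail (0.23, interval -0.31 to 0.77). Of 10 posterior Hox genes 9 had lower values (median -0.69) and 0 were called. This median rests on 24 hpa replicate 1: relative to the whole tail mean it was -1.34 in that library and 0.0181 in replicate 2. HOXC13, the last gene of its cluster, stood at 684 and 1831 at 24 hpa, against 3580.3 and 2370.3 in the whole tail. HOXA13 stood at 611 and 1303 at 24 hpa, against 1268 and 787 in the whole tail. Both 24 hpa libraries of HOXC13 lay below both whole tail libraries, as in 25.4% of all tested genes. Those of HOXA13 lay on either side of the whole tail libraries. EMX1, another homeobox gene, was called lower at 941 and 700.0 at 24 hpa, against 2111 and 2202 in the whole tail (log2 fold change -1.41, SE 0.21, limma adjusted p = 0.035; chosen after its value was seen), with 405 and 429 at 0 hpa.

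Among genes listed for the notochord, the stiff rod of the tail, a regulator of early notochord was above the whole tail and caveolins were below it. NOT, the homeobox gene of notochord progenitors, stood at 1685 and 1741 normalised reads at 24 hpa, against 685 and 689 in the whole tail (log2 fold change 1.32, SE 0.19, limma adjusted p = 0.033) and at 296 and 282 at 0 hpa. CAV1 and CAV2, caveolins found in the membranes of vacuolated notochord cells, were called lower. Which cells of the tail held their reads was not tested. CAV1 stood at 1471 and 1915 at 24 hpa, against 7587 and 10629 in the whole tail (log2 fold change -2.42, SE 0.29, limma adjusted p = 0.022), and at 2706 and 3307 at 0 hpa. CAV2 stood at 405 and 492 at 24 hpa, against 2689 and 3903 in the whole tail (log2 fold change -2.86, SE 0.33, limma adjusted p = 0.021), and at 1334 and 1616 at 0 hpa. These were the 3 called of 28 genes of notochord and floor plate (median -0.60, 21 below the whole tail, 4 within 2-fold). Of all tested genes 0.793% were called higher and 0.313% lower, and 38.1% lay within 2-fold. SHH, the signal of notochord and floor plate, lay within 2-fold (-0.41, interval -0.91 to 0.09). FOXA2, a factor of both, stood at 104 and 158 at 24 hpa, against 462 and 328 in the whole tail (adjusted p = 0.079). COL2A1, the collagen of the notochord sheath, stood at 94780.1 and 73255 at 24 hpa, against 131686 and 172578 in the whole tail (adjusted p = 0.21).

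Of 24 pigment cell genes, 1 was called in each direction (against 0.793% higher and 0.313% lower of all tested genes). RAB38, a GTPase that delivers enzymes to melanosomes, was called lower, at 105 and 64.8 normalised reads at 24 hpa, against 577 and 398 in the whole tail (log2 fold change -2.52, SE 0.38, limma adjusted p = 0.034). GPNMB, a glycoprotein of melanosomes that macrophages also express, was called higher, at 364 and 305 at 24 hpa, against 43.6 and 78.7 in the whole tail (log2 fold change 2.49, SE 0.37, limma adjusted p = 0.033). The median was -1.04 with 19 members below the whole tail and 5 within 2-fold (20.8%, against 38.1% of all tested genes). The median interval of the list was 1.03 to either side, so many members could not lie within 2-fold whatever their difference. The melanin enzymes TYR (-2.31, limma adjusted p = 0.058), DCT (-2.55, adjusted p = 0.12) and TYRP1 (-2.28, adjusted p = 0.097) were not called. Both 24 hpa libraries lay below both whole tail libraries in each, as in 25.4% of all tested genes. TYR stood at 498 and 249 at 24 hpa, against 2181 and 1403 in the whole tail.

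The largest falls held genes of mixed roles. SLC18B1, a vesicular polyamine transporter, stood at 99.8 and 81.7 normalised reads at 24 hpa, against 1881 and 2255 in the whole tail (log2 fold change -4.50, SE 0.28, limma adjusted p = 0.0054) and at 326 and 434 at 0 hpa. OPTC, the small matrix proteoglycan opticin, stood at 56.1 and 114 at 24 hpa, against 1231 and 640.4 in the whole tail (log2 fold change -3.46, SE 0.47, limma adjusted p = 0.027). A2ML1, a protease inhibitor of the alpha-2-macroglobulin family, stood at 461 and 1004 at 24 hpa, against 5051 and 4218 in the whole tail (log2 fold change -2.76, SE 0.34, limma adjusted p = 0.022). The groups stood far apart in each of these genes. SLC24A4, a cation exchanger (-3.28, adjusted p = 0.019), LPPR1 (-2.44, adjusted p = 0.041) and ARG2, the mitochondrial arginase (-2.65, adjusted p = 0.041), were others. ARG2 was -3.31 without whole tail replicate 1 and -1.98 without replicate 2. LECT1, chondromodulin, a cartilage glycoprotein, stood at 2520.3 and 1108 at 24 hpa, against 7422 and 11477 in the whole tail (adjusted p = 0.041), with log2 fold changes of -3.06 without 24 hpa replicate 1 and -1.87 without 24 hpa replicate 2. ELN1, elastin, and PMP22, a myelin protein, were chosen after their values were seen. ELN1 stood at 3505 and 5731 at 24 hpa, against 19870.5 and 27581 in the whole tail (log2 fold change -2.38, SE 0.32, limma adjusted p = 0.027) and at 27612 and 19561 at 0 hpa. PMP22 had a log2 fold change of -2.19 (adjusted p = 0.024).

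Genes of dividing cells were close to the whole tail, and most lay slightly below it. Of 46 mitosis genes 42 lay within 2-fold and 0 were called, and 41 had values below the whole tail. Their median was -0.26 (-0.379 to -0.18 over 21 alternatives), with a median interval of 0.531 to either side. Of 49 DNA replication genes 37 lay within 2-fold, against 38.1% of all tested genes. Called higher were 0 and lower 1 (against 0.793% and 0.313% of all tested genes). Of the 49, 42 had values below the whole tail (median -0.24, and -0.461 to -0.1 over 21 alternatives). CDK1, the kinase that starts mitosis, stood at 5516 and 4742 normalised reads at 24 hpa, against 6226 and 5656 in the whole tail (interval -0.78 to 0.35). PLK1, another mitotic kinase, stood at 5928 and 4601 at 24 hpa, against 5771 and 5919.6 in the whole tail (interval -0.69 to 0.37). PCNA, the sliding clamp of replication, stood at 7238 and 6174 at 24 hpa, against 8874 and 5684 in the whole tail (interval -0.68 to 0.51). The differences of these 3 genes were small beside the bound of 2-fold, and CDK1 stood at 5634 and 5846 at 0 hpa. Oxidative phosphorylation genes had 45 of 60 members within 2-fold and 57 below the whole tail (median -0.30). ATP5B, a subunit of ATP synthase, stood at 80303 and 58669 at 24 hpa, against 88535 and 68754 in the whole tail (interval -0.92 to 0.55). The median interval over all tested genes was 0.78 to either side, wider than in these lists.

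Genes called against the fresh wound and within 2-fold of the whole tail at 24 hpa were few. This rule did not ask for a difference between 0 hpa and the whole tail. Called higher than 0 hpa and within 2-fold were 8 genes (0.0447% of those tested), and called lower than 0 hpa and within 2-fold were 3 (0.0168%). In the comparison of 24 hpa with 0 hpa itself, 119 genes (0.665%) were called higher and 54 (0.302%) lower; it shares the 24 hpa libraries. MST1, macrophage-stimulating protein, stood at 301 and 268 normalised reads at 24 hpa, against 256 and 256 in the whole tail and at 73.1 and 66.0 at 0 hpa. BMP5, a BMP ligand, stood at 477 and 676 at 24 hpa, against 470.3 and 541 in the whole tail and at 137 and 209 at 0 hpa. CDH2, N-cadherin of neural and mesodermal tissue, stood at 2694 and 3013 at 24 hpa, against 2760.3 and 2412 in the whole tail and at 1132 and 1009 at 0 hpa. In these genes the 24 hpa and whole tail libraries overlapped or nearly met, and the 0 hpa libraries lay well below either. The rule chose genes for this pattern, so it is a description and adds no support.

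The other 5 were ZNF217, a zinc finger factor (1.49 against 0 hpa), MEX3B, an RNA-binding protein (1.36), CSRP2, a LIM protein of smooth muscle (1.17), NTMT1, an N-terminal methyltransferase (1.11), and LOC100127584-LIKE (1.13), with limma adjusted p between 0.023 and 0.047 over the 8. From the other side came SEMA3D, a secreted guidance signal, at 1917 and 2071 normalised reads at 24 hpa, against 1987 and 3020.2 in the whole tail and at 7648 and 5979.8 at 0 hpa. XETROV90021881M.G was another (-1.31 against 0 hpa). For SEMA3D the 24 hpa libraries overlapped with the whole tail, and the fresh wound lay far above both, a pattern the rule selects.

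**Figure D4:**
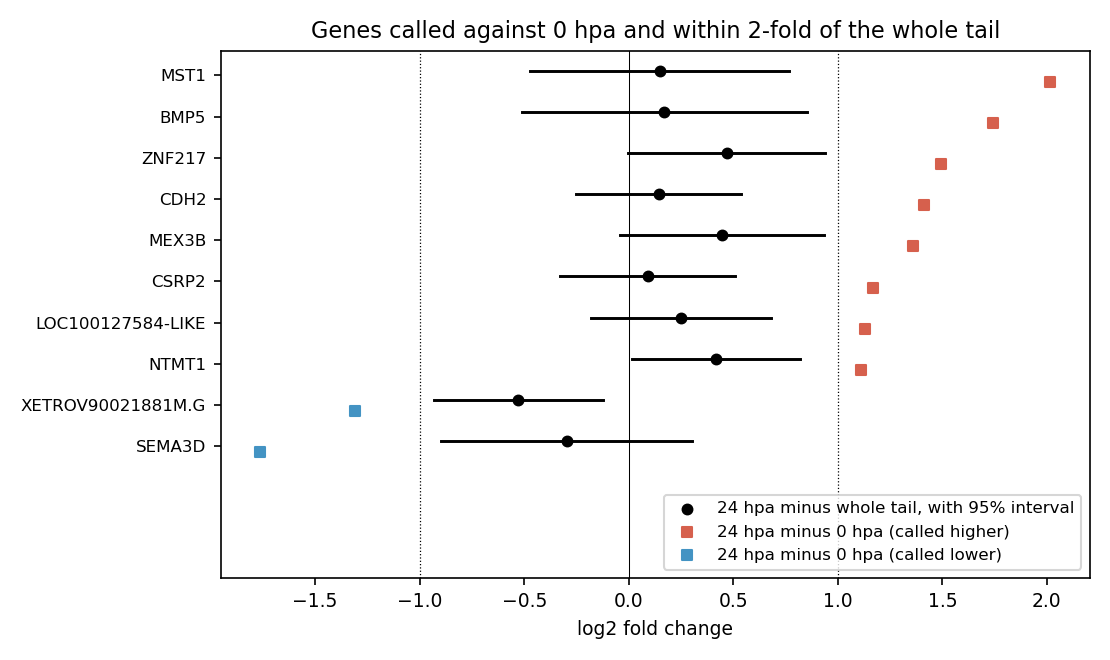
Log2 fold change of 10 of the 11 genes called against 0 hpa and within 2-fold of the whole tail: black points with 95% intervals give 24 hpa minus whole tail, and squares give 24 hpa minus 0 hpa (red called higher, blue called lower). By the rule that chose these genes, all 10 intervals lie between the dotted lines at a 2-fold difference. The squares lie outside them, from 1.11 for NTMT1 to 2.02 for MST1 above and -1.76 for SEMA3D below.

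Skeletal muscle could be placed neither way. The 51 tested sarcomere genes had a median of 0.04, but a median interval of 2.24 to either side, and the median ranged from -1.23 to 1.25 over 21 alternatives. ACTC1, cardiac and larval muscle actin, stood at 118837 and 45954 normalised reads at 24 hpa, against 199128 and 37301 in the whole tail. CKM, muscle creatine kinase, stood at 64369 and 19468 at 24 hpa, against 51847 and 9491 in the whole tail. In both genes replicates of the same group differed by more than the groups did. Of 21 myogenic regulators 0 were called and 1 lay within 2-fold (against 38.1% of all tested genes). Their median was -0.36, with a median interval of 1.84 to either side. MYF5, a factor of muscle progenitors, stood at 213 and 255 at 24 hpa, against 1584 and 365 in the whole tail (adjusted p = 0.27). MYOD1, a master factor of muscle, stood at 119 and 51.6 at 24 hpa, against 346 and 76.0 in the whole tail (adjusted p = 0.65). Endothelial (31), erythroid (30), fin mesenchyme (37), collagen (20), immediate early (40) and glycolysis genes (40) also had 0 calls, with medians of -0.47, -0.31, -0.24, -0.06, -0.70 and -0.20. The endothelial, collagen, fin mesenchyme and myogenic medians changed sign under 1 of the 21 alternatives each. HBA3, an alpha globin of red blood cells, stood at 83339.8 and 57271 at 24 hpa, against 82944 and 73116 in the whole tail and at 177990.0 and 690942 at 0 hpa, so that the fresh wound held the highest values. EGR1, an immediate early transcription factor, stood at 3643 and 3560.2 at 24 hpa, against 6709 and 8409 in the whole tail (adjusted p = 0.071) and at 14684 and 15985 at 0 hpa, where it was higher than at 24 hpa (-2.09 for 24 hpa minus 0 hpa, limma adjusted p = 0.016).

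The other lists held few calls. CAT, catalase, which breaks down hydrogen peroxide, was the called member of 37 antioxidant enzymes (against 0.793% called higher of all tested genes). It stood at 666 and 1009 normalised reads at 24 hpa, against 209.6 and 279 in the whole tail (log2 fold change 1.76, SE 0.30, limma adjusted p = 0.044). The list's median was -0.21. DLC, given above, was the called member of 28 Notch pathway genes (against 0.313% called lower of all tested genes). Their median was 0.01, a sign that changed under 10 of 21 alternatives. Retinoic acid and hedgehog genes (35), chaperones (49), apoptosis genes (31) and lipid synthesis genes (39) had 0 calls, with medians of -0.06, 0.0046, 0.15 and -0.08 that changed sign under 1 to 3 alternatives. Of the 24 gut, liver and kidney markers 0 were called (median -0.27).

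Set along the time course, the lists that stood apart at 24 hpa had different paths. Leukocyte genes had medians, relative to the whole tail mean, of 0.711 and 0.822 beside the fresh cut, 1.69 after 6 h, 2.29 after 15 h, 1.30 and 1.57 after 24 h and 2.15 and 2.14 after 72 h. Neuronal genes lay at 0.265 and -0.357 beside the cut, 0.0625 after 6 h, -0.557 after 15 h, -1.03 and -1.22 after 24 h and -1.66 and -2.05 after 72 h. The neuronal values at 24 hpa were below those beside the fresh cut, and those at 72 hpa lower again. Segmenting paraxial mesoderm was already at -1.17 and -1.02 at 0 hpa and lay at -1.45 and -1.38 at 24 hpa. Anterior and trunk Hox genes were at -1.24 and -1.21 at 0 hpa, and at -1.03 and -0.629 at 24 hpa. These medians share the whole tail libraries as their zero and are given as a description.

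**Figure D5:**
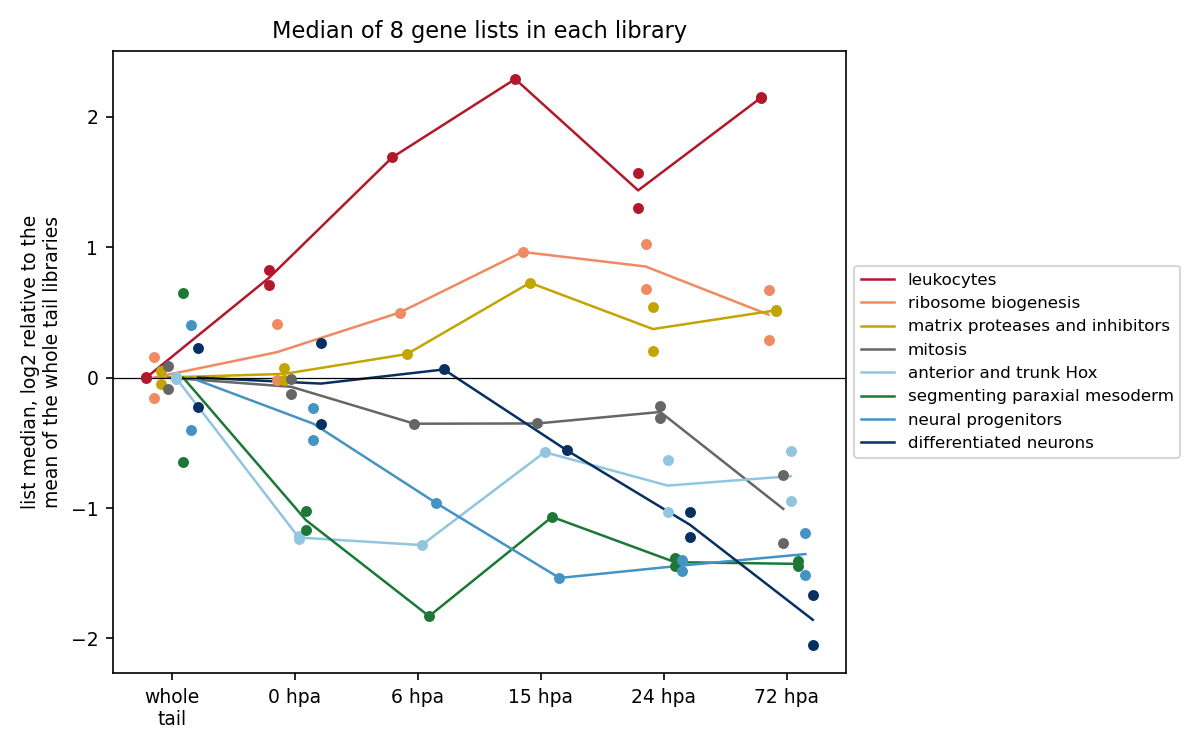
Median of 8 gene lists in each library (points), as log2 relative to the mean of the whole tail libraries, in the order whole tail, 0, 6, 15, 24 and 72 hpa, with lines through the group means. Leukocyte genes lie above 1 from 6 hpa on, neuronal genes lie below -1 at 24 hpa, and segmentation and Hox genes lie near or below -1 already at 0 hpa.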

How the data were processed

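RNA-seq libraries of tadpole tails (10) were made with a TruSeq kit from total RNA, per the labels' protocols. Per the submitters' processing notes, the tools were TopHat2 2.0.13, Trim Galore 0.3.3, HTSeq, SAMtools 1.1, R 3.2.0 and DESeq2, with no roles given. Genome build and strand setting are not stated in these sources. The authors deposited 1 table of normalised signal, in which each value is a whole number of reads divided by a median-of-ratios size factor (100% whole at a tolerance of 0.01). From this reads and depth were recovered. Reads of overlapping or near-identical genes cannot be told apart.

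The deposited values are normalised, so limma 3.58.1 (R 4.3.3, trend of variance on mean) was the main test. It was fitted to log2(value + 1) of 17896 genes with at least 10 in at least 2 libraries. All 10 libraries and 6 groups entered 1 fit (4 residual degrees of freedom, 7.58 with the prior), which assumes a like spread in all groups. P-values were Benjamini-Hochberg adjusted over all tested genes. Intervals are unadjusted 95% intervals from this fit, and a gene lay within 2-fold when its interval lay between -1 and 1 on the log2 scale. On simulated data of 17599 genes for 24 hpa against whole tail, limma called 4% of 50 genes shifted by 1 log2 unit, 74% of 50 shifted by 2, 94% of 50 shifted by 3 and 98% of 50 shifted by 4. Of these, 7 of 142 calls were false, and 0 genes shifted by 2 or more were placed within 2-fold. The shifted genes were drawn from those with a mean above 50 normalised reads, so recovery of lower genes was not simulated. Counts were drawn for each gene independently, so swings shared by the genes of a tissue were not simulated either.

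Genes were named by rule: the 15 largest rises and 15 largest falls among called genes that had a symbol, non-overlapping libraries and 5 CPM or more on the higher side, up to 4 called and the 2 members of each list with most reads (not corrected for length), a panel, and the genes back within 2-fold. Other genes were chosen after their values were seen. The comparison, lists and panel were chosen with earlier results of these data known. Of 4653 LOC identifiers, 1114 were named from RefSeq (UCB_Xtro_10.0). Alternatives were edgeR 4.0.16 and DESeq2 1.42.0 on the recovered reads, other scalings, filters and pseudocounts, fewer libraries and a replicate block. A few genes that the rule names are not reported here.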

Additional observations from a re-analysis of the deposited data

How the results depend on the processing

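The count of genes called against the whole tail stayed within 1.5 times of 142 higher and 56 lower under other scalings, pseudocounts, a stricter filter, thinning to equal depth, edgeR and the 8 duplicated libraries. DESeq2 called 705 and 612, limma without a filter 41 and 16, and limma on the 4 libraries alone 0 and 0, where 2 residual degrees of freedom remain. Leaving out 1 library of any duplicated group gave 1 to 90 genes higher and 1 to 47 lower, with the lone library of a group assumed to vary like the others. Genes within 2-fold numbered 4304 to 7039 without 1 library (4304 without 24 hpa replicate 1). The 8 genes called higher than 0 hpa and within 2-fold became 53 with DESeq2, 4 without a filter and 0 to 7 without 1 library. The 3 called lower became 43 with DESeq2, 12 without a filter and 0 to 7 without 1 library. The cause of these differences was not tested. The labels do not say that replicate numbers pair the libraries, and the deviations of same-numbered 24 hpa and whole tail libraries correlated at 0.136 (24 hpa with 0 hpa at 0.271, and with 72 hpa at -0.135). With a replicate block on the 8 duplicated libraries, 121 genes were higher and 74 lower. Under it, 4 genes were called higher than 0 hpa and within 2-fold of the whole tail. Under total-count scaling the median of all genes moved to 0.076. The text names 84 called genes, and the values of these genes kept their sign under every alternative run, while the call was lost in 502 values that leave out a library and in 193 others. Those others come from 13 alternatives. Under these TCAP was called in 6, NEUROD1 in 7, and BMPER, IL5RA and VARS in 8 each, the fewest of the 84. Leaving out a library could not change the sign, since the groups of each called gene do not overlap. Of 84 named genes that were not called, the threshold was passed in 2 values without a library and in 37 others. Low genes are limited by depth, since values that stand for a few reads entered the fit with no floor.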
